A study of Mus musculus with 5 samples.

Results

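The genes of fatty acid activation and beta-oxidation, the route by which cells burn fat, were read by RNA-seq in 5 libraries labelled as CRC tumours of mice. The group held 37 genes, chosen by gene symbol, out of 54014 symbols in the deposited table. In the labels all 5 samples were tumour tissue from C57BL/6 mice, 3 exposed to 30 °C and 2 exposed to 4 °C, each for 2 weeks. Neither group carried a further genotype or treatment in the labels, and age and sex were given for neither. In the study, mouse CRC tumours were grown from MC-38 cells, a colon adenocarcinoma line, in C57BL/6 mice, which have an intact immune system. A human CRC line was implanted in immunodeficient mice. The study's methods on RNA-seq do not name the line behind these samples. The thermoneutral control was 30 °C. The question was whether housing in the cold changed the metabolism of the tumours.

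Libraries held 16191708 to 20320525 counts on named genes. Genes of other tissues took up unequal room in them. Transcripts of pancreatic acinar cells, summed over 19 genes, made up 26.2% of the counts of tumour 30 °C 2 and 2552 CPM (counts scaled to a library of 1000000) in tumour 4 °C 2, and 20.7 to 80.5 CPM in the other 3 libraries. Erythroblast genes (12 genes), mostly globins, summed to 16500 to 31798 CPM in the tumours at 30 °C and to 36304 and 42642 CPM in those at 4 °C. With TMM scaling these groups overlapped (14640 to 43183 against 33606 and 41364), and Ermap, Slc4a1, Tfrc and Rhag of the same list had fewer CPM in both tumours at 4 °C. Genes of the splenic mesenchyme (6 of 6 genes above 3 counts in every tumour) summed to 69.0 to 172 CPM. The 11 epithelial and colon carcinoma genes of the labelled tissue summed to only 20.6 to 127 CPM. Among them the colonic factor Cdx2 had 0 to 8 counts and Vil1, a brush border protein, 0 to 4. Of the 11 genes, 7 were above 3 counts in every tumour, such as Epcam (128 to 200 counts) and Krt8 (59 to 966). The level of these genes in MC-38 cells was not measured here. The low epithelial sum beside genes of other tissues leaves the tissue of the libraries in doubt, and tumour stands below for a library so labelled. Neutrophil genes (12 genes) summed to 14653, 6645 and 3589 CPM at 30 °C and to 2857 and 4424 CPM at 4 °C. B cell genes (10 genes) lay between 1423 and 3976 CPM at 30 °C and at 3396 and 4286 CPM at 4 °C, T cell genes (10 genes) between 309 and 653 CPM and at 832 and 862 CPM, and macrophage genes (10 genes) between 1557 and 3758 CPM and at 2601 and 3006 CPM. Megakaryocyte genes (6 genes) stood at 300.5 to 378 CPM and hepatocyte genes (7 genes) at 6.81 to 44.4 CPM. Genes of fat and muscle had low sums. The 8 adipocyte genes summed to 4.69 to 13.1 CPM, with Lep at 0, Plin1, Cidea and Ucp1 at 3 counts or fewer and Fabp4 at 76 to 182 counts. The 9 muscle genes summed to 4.89 to 11.7 CPM, with Myh4 at 0 and Mylpf at 79 to 179 counts. Since each library was a bulk tissue, fewer cells of a type and less RNA per cell cannot be told apart in any value that follows.

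To be burnt, a long-chain fatty acid is first joined to coenzyme A by an acyl-CoA synthetase and then handed across the mitochondrial membranes as a carnitine ester. Inside, a dehydrogenase, a hydratase, a second dehydrogenase and a thiolase cut the chain repeatedly from its carboxyl end, and the electrons of the first step pass through electron transfer flavoprotein to the respiratory chain. Very long and branched chains are shortened in peroxisomes, odd chains end as propionyl-CoA, and many of these genes are targets of the nuclear receptors of the PPAR family.

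Of the 37 genes, 35 passed the filter on low counts. The exceptions were Cpt1b, the muscle form of carnitine palmitoyltransferase, with 0 to 3 counts, and Ppara, the receptor that drives fat oxidation in liver, with 0 to 5 counts. The tested genes were read at 62 to 4217 counts a tumour. For the lowest of these counts the exact Poisson 95% interval runs from 47.5 to 79.5, which covers counting error only. Levels are given below as CPM scaled by the TMM method, which evens out the composition of the libraries, and as CPM per kilobase of exon where genes are compared with each other. By the latter, the mean over all 5 tumours was highest for Acadl (52.4 ± 8.18, SD, n = 5), Etfa (46.3 ± 6.08), Acsl5 (37.7 ± 5.10) and Acaa2 (37.4 ± 8.06). It was lowest among the tested genes for Acsl6 (0.524 ± 0.093). With the length of the longest transcript in place of all exons, Etfa came before Acadl, Hadha moved from rank 7 to rank 4, and 8 of the 10 highest genes were shared between both orders.

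**Figure D1:**
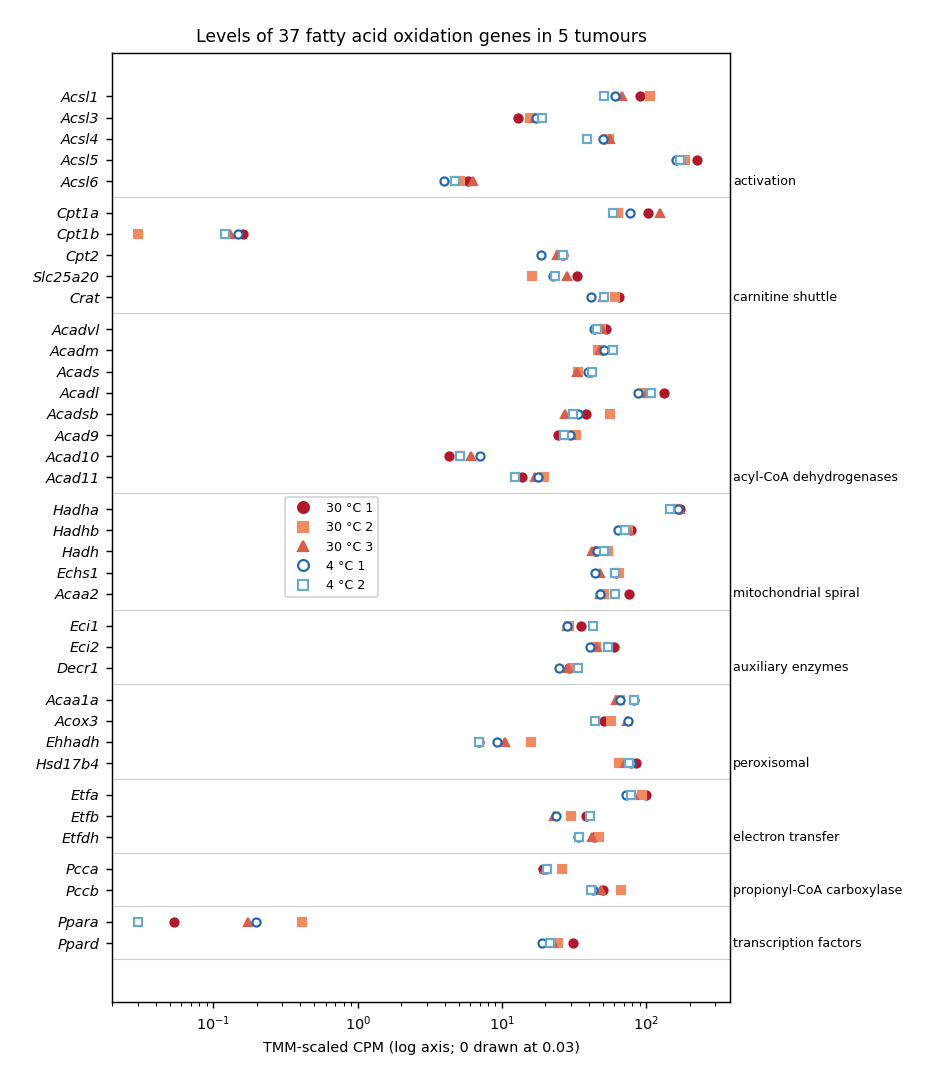
TMM-scaled CPM of the 37 genes (log axis) in each tumour, with genes grouped by role, filled red symbols for tumours at 30 °C and open blue symbols for tumours at 4 °C. Most genes lie between 10 and 200 CPM with the symbols of a gene close together, whereas Cpt1b and Ppara lie below 1 CPM in every tumour.

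No gene of the pathway passed the threshold between 4 °C and 30 °C. Among the 35 tested genes, 0 had an adjusted p under 0.05 in the quasi-likelihood test of edgeR (smallest adjusted p = 0.706), against 0.00% of all 16133 genes tested. At an unadjusted p under 0.05 stood 1 gene, Acsl1, against 6.76% of all genes. The Wald test of DESeq2 also called 0 of the 35, against 0.731% of all genes, and placed 2 of them, Acsl1 and Etfdh, at an unadjusted p under 0.05, against 7.80% of all genes. By sign, 26 of the 35 genes (74.3%) were lower at 4 °C and 9 higher, where 49.3% of all tested genes were lower. The median log2 fold change of the 35 genes was -0.16 against 0.01 over all genes. This gap moved with single libraries. The medians were -0.11 and -0.04 without tumour 4 °C 1, -0.27 and -0.02 without tumour 4 °C 2, and -0.09 and 0.00 with the neutrophil level as a covariate. Both tumours at 4 °C lay below all 3 tumours at 30 °C for 10 genes (28.6%), against 11.0% of all genes, and above them for 2 genes (5.71%), against 12.2%. Those counts depended on the scaling. With upper-quartile scaling they were 6 below and 2 above, against 9.06% and 14.8% of all genes, and in CPM without further scaling 2 below and 2 above, against 5.41% and 11.0%. Without tumour 30 °C 2 they were 13 below and 4 above, against 14.0% and 15.2% of all genes.

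The mean log2 CPM over the 35 genes was 5.40, 5.37 and 5.29 in the tumours at 30 °C and 5.19 and 5.25 in the tumours at 4 °C. These are 5.36 ± 0.06 (SD, n = 3) and 5.22 ± 0.05 (SD, n = 2), so that the groups did not overlap, and the difference was -0.13 on the log2 scale, or also -0.13 without tumour 30 °C 2. Summed over the 37 genes, the TMM-scaled CPM was 2026, 1877 and 1801 at 30 °C and 1658 and 1739 at 4 °C. As a share of all counts the order was another, with 0.218%, 0.138% and 0.203% at 30 °C and 0.179% and 0.179% at 4 °C, where the library with acinar transcripts was the lowest. Gene by gene, 15 of the 35 differences (42.9%) exceeded the SD of the tumours at 30 °C on the log2 scale, close to the 43.2% of all tested genes. The lowest of the 5 levels fell in tumours 30 °C 1, 2 and 3 for 5, 3 and 6 genes and in 4 °C 1 and 2 for 14 and 7. The highest fell in tumours 30 °C 1, 2 and 3 for 12, 10 and 4 genes and in 4 °C 1 and 2 for 2 and 7. The same tally was not made over all tested genes. Few genes varied much, since the highest level was 1.47 times the lowest for the median gene, from 1.18 times for Hadha to 2.28 times for Ehhadh.

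**Figure D2:**
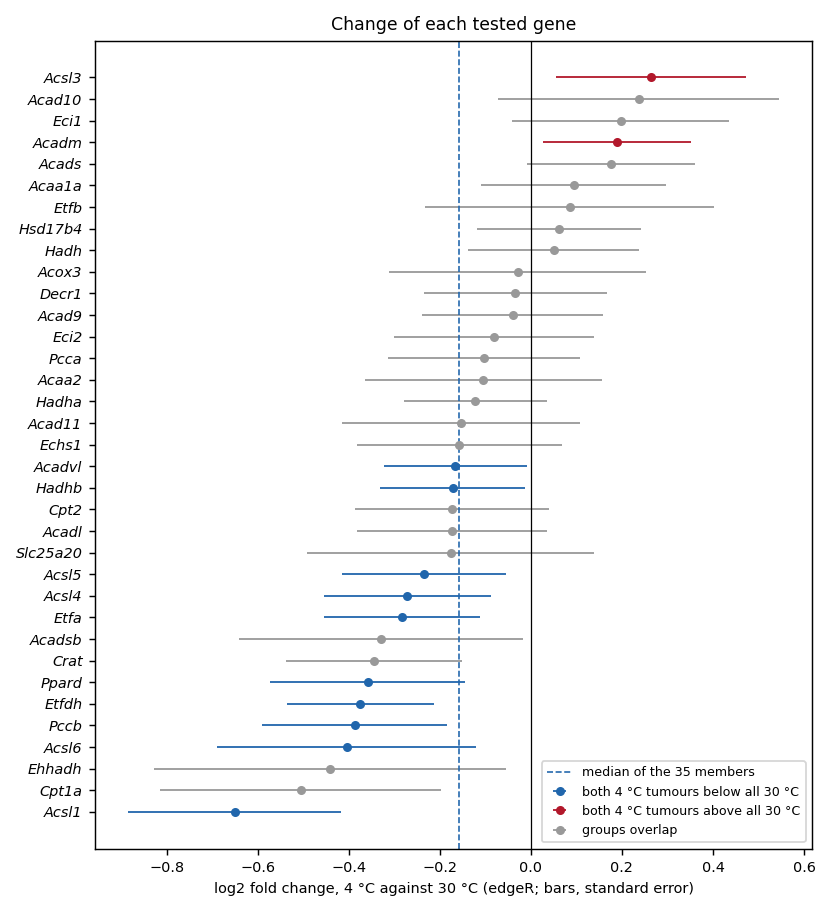
Log2 fold change of each of the 35 tested genes, 4 °C against 30 °C, with bars for the standard error derived from the edgeR F statistic and the dashed line at their median (-0.16). Points run from -0.65 for Acsl1 to 0.26 for Acsl3, blue points mark the 10 genes for which the cold group lay wholly below the warm one, and red points the 2 genes with both above.

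Activation of fatty acids was read from 5 long-chain acyl-CoA synthetases, of which 4 were lower and 1 higher at 4 °C. Acsl1, the main synthetase of fat-burning and fat-storing tissues, had 90.4, 105 and 67.6 TMM-scaled CPM at 30 °C and 60.5 and 51.2 at 4 °C. All 3 tumours at 30 °C were above both at 4 °C, though the nearest pair differed little. The log2 fold change of Acsl1 was -0.65 ± 0.23 (SE; edgeR adjusted p = 0.706), the furthest from 0 of the 35 genes. The summed TMM-scaled neutrophil level was 13635, 9024 and 3184 CPM at 30 °C and 2644 and 4292 CPM at 4 °C. Its highest value was in tumour 30 °C 1, that of Acsl1 in tumour 30 °C 2. Whether neutrophils bear on the level of Acsl1 was not tested. With the neutrophil level as a covariate the log2 fold change of Acsl1 was -0.41 (edgeR adjusted p = 0.580), and without tumour 30 °C 2 it was -0.51 (edgeR adjusted p = 1.00), no longer at an unadjusted p under 0.05 in either fit.

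Acsl1 lies on chromosome 8 (GENCODE M21 on GRCm38, chr8:46471037-46536051, plus strand). The sequence around its first start site, from 250 bases before to 50 after it (RefSeq, GRCm38.p6, chr8:46470787-46471086, plus strand), is shown because this gene had the largest change. It has 74.0% G and C and 7 GC boxes (GGGCGG or its complement), in capitals and partly overlapping.
Acsl1 promoter: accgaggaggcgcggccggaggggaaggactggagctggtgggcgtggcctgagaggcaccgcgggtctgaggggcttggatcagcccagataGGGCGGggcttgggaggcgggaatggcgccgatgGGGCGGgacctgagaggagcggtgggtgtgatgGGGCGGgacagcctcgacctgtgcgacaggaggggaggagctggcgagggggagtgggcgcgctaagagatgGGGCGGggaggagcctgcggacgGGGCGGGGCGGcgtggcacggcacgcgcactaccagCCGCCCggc

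Acsl5, a synthetase abundant in gut and in mitochondrial membranes, was the dominant form at 224, 186 and 175 TMM-scaled CPM at 30 °C and 160 and 172 at 4 °C, with a log2 fold change of -0.23. Acsl4, which prefers arachidonic acid, had 51.0, 55.1 and 55.8 CPM at 30 °C and 50.3 and 39.1 at 4 °C (log2 fold change -0.27). Acsl6, a form of brain and red-cell precursors, had 5.85, 5.09 and 6.33 CPM at 30 °C and 3.98 and 4.73 at 4 °C (log2 fold change -0.41). In each of the 3 genes every tumour at 30 °C exceeded every tumour at 4 °C, for Acsl4 and Acsl5 by a gap of under 4 CPM. Acsl3, a synthetase of lipid droplets, ran the other way, with 12.8, 15.5 and 16.9 CPM at 30 °C and 17.3 and 18.9 at 4 °C (log2 fold change 0.26). Neither these 4 genes nor Acsl1 passed the adjusted threshold of edgeR. As shares of the 5 synthetases per kilobase, Acsl5 came to 64.0% ± 3.67 (SD) over the 3 tumours at 30 °C and to 65.2% ± 3.38 over the 2 at 4 °C, Acsl1 to 13.4% ± 2.46 and 10.2% ± 1.19, and Acsl3 to 5.61% ± 1.22 and 7.96% ± 0.51. Such shares do not depend on how libraries are scaled. Over the 23 shares compared in 9 families of genes, the smallest exact permutation p was 0.2 and the smallest adjusted p was 0.418. This two-sided test doubles the smaller one-sided p, so 0.2 is the least it can give for 3 tumours against 2. Shares of a family are tied to each other, and in families of 2 genes each share mirrors the other. The 23 shares are thus not separate results.

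The carnitine shuttle carries the activated chains into mitochondria, and all 4 of its tested genes were lower at 4 °C, none with separate groups. Cpt1a, the rate-setting carnitine palmitoyltransferase of the outer membrane, had 102, 63.5 and 124 TMM-scaled CPM at 30 °C and 77.0 and 58.9 at 4 °C. Its log2 fold change was -0.51 ± 0.31 (SE), and tumour 30 °C 2 lay between the tumours at 4 °C. Without that tumour it was -0.74 ± 0.25 (SE; edgeR adjusted p = 1.00), at an unadjusted p under 0.05. Cpt1b, the muscle form, had 3, 0 and 3 counts at 30 °C and 3 and 2 counts at 4 °C, so that Cpt1a made up at least 99.5% of the pair per kilobase in every tumour. The inner-membrane enzyme Cpt2 and Crat, which makes short-chain carnitine esters, had log2 fold changes of -0.17 and -0.34.

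Slc25a20, the carrier that exchanges acylcarnitine for carnitine, had 33.0, 16.1 and 28.2 CPM at 30 °C and 22.5 and 23.2 at 4 °C (log2 fold change -0.18). Tumour 30 °C 2 was the lowest of all 5 and the other tumours at 30 °C the highest, and without 30 °C 2 the log2 fold change was -0.43. Slc25a20 is one of 4 genes of the pathway whose start region holds a pair of nuclear receptor half-sites (the letters AGGTCA repeated after a spacer of 1 base, on either strand, with at most 2 mismatches), the form of element that PPAR and RXR bind. Its start region (RefSeq, GRCm38.p6, chr9:108661886-108662185, plus strand) is shown with that element in capitals.
Slc25a20 promoter: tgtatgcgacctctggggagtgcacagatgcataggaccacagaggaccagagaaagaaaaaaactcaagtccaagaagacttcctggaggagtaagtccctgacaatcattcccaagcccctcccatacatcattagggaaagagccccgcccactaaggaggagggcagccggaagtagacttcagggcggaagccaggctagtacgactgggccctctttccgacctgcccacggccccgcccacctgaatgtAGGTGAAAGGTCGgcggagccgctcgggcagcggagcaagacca

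The 4 pairs of half-sites are set side by side, each read in the direction of AGGTCA, with capitals for bases that match the half-sites and small letters for the spacer and the mismatches. Counted in the direction of the gene, their first bases lie at positions -83, -77, 7 and -1 relative to the start site. That of Etfa lies on the strand opposite to the gene, so its -77 is the last letter as printed.
Echs1: AGGTCAcgGGTCc
Etfa: AGGgCAaAGGTaA
Slc25a20: AGGTgAaAGGTCg
Pcca: gGGTgAgAGGTCA
A start region was held by RefSeq for 31 of the 37 genes, in 35 windows of 300 bases, and each motif was searched on both strands. Such a pair was in 11.4% of these windows and in 3.86% of the 32841 windows of all genes. The single half-site AGGTCA was in 20.0% against 16.3%, and the extended half-site of the estrogen-related receptors, TNAAGGTCA, which contains the half-site, was in 2.86% (1 window, of Acsl6) against 1.28%. GC boxes (GGGCGG) were in 77.1% against 35.7% and CCAAT boxes (CCAAT) in 48.6% against 37.4%, while the TATA box (TATAAA) and the E-box (CACGTG) were in 0% against 13.6% and 7.15%. The windows of the pathway were richer in G and C, with a median of 60.7% against 52.7%. The 4 genes with a pair had log2 fold changes of -0.16 (Echs1), -0.28 (Etfa), -0.18 (Slc25a20) and -0.10 (Pcca), on both sides of the median of the 35 genes. A match to letters is a description of the sequence and does not show that a factor was bound.

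The acyl-CoA dehydrogenases take the first step of each round, and their forms divide the chains by length and branching. Of 8 genes, 5 were lower and 3 higher at 4 °C, with a median log2 fold change of -0.10. Acadl, the long-chain form, was the most abundant per kilobase and had 132, 98.3 and 100.3 TMM-scaled CPM at 30 °C and 87.8 and 107 at 4 °C (log2 fold change -0.17). Acadvl, the membrane-bound form for the longest chains, had 52.2, 48.6 and 49.4 CPM at 30 °C and 43.7 and 45.5 at 4 °C (log2 fold change -0.17). Acadm, the medium-chain form, had 49.3, 46.2 and 47.5 CPM at 30 °C and 50.5 and 58.3 at 4 °C (log2 fold change 0.19). The groups of Acadvl and Acadm were thus apart in opposite directions, with gaps of a few CPM, while those of Acadl overlapped. Acad10, the least abundant of the 8, had 4.31, 5.09 and 6.07 CPM at 30 °C and 7.06 and 5.09 at 4 °C (log2 fold change 0.24). The short-chain form Acads had a log2 fold change of 0.18, Acadsb, which acts on short branched chains, -0.33, Acad9, also an assembly factor of respiratory complex I, -0.04, and Acad11 -0.15.

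Among the 4 straight-chain forms Acads and Acadm had larger shares per kilobase at 4 °C and Acadl a smaller one. Acads made up 15.8%, 15.7% and 15.3% at 30 °C and 19.2% and 17.8% at 4 °C. Acadm made up 10.9%, 12.6% and 12.8% at 30 °C and 14.3% and 14.3% at 4 °C, and Acadl 56.6%, 52.4% and 52.6% against 48.5% and 51.5%. The groups did not overlap for any of the 3 genes. Each stood at an exact permutation p of 0.2, the smallest that this test can give here (adjusted p = 0.418). Shares in a family are tied, since a larger share of a gene lowers the sum of the others. These are thus not 3 separate results. Acadvl came to 18.5% ± 1.49 (SD, n = 3) in the warm group and 17.2% ± 1.21 (SD, n = 2) in the cold group, which overlapped (exact permutation p = 0.4).

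**Figure D3:**
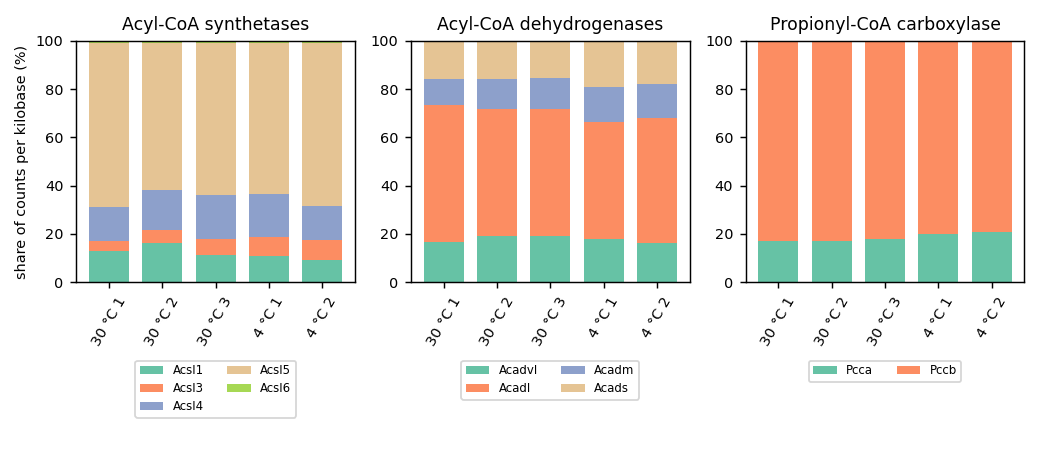
Share of each gene (%) in the counts per kilobase of its family in each tumour, for the acyl-CoA synthetases, the straight-chain acyl-CoA dehydrogenases and the subunits of propionyl-CoA carboxylase. Acsl5, Acadl and Pccb form the largest block of their family in every tumour, and Acadm, Acads and Pcca have larger shares in both tumours at 4 °C than in the 3 at 30 °C.

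The remaining steps of the mitochondrial spiral were read from 5 genes, 4 lower and 1 higher at 4 °C. Hadha and Hadhb encode both subunits of the trifunctional protein, which carries out the last 3 reactions on long chains. Hadha had 170, 164 and 172 TMM-scaled CPM at 30 °C and 165 and 146 at 4 °C (log2 fold change -0.12), the steadiest of the 35 genes. Hadhb had 78.9, 74.6 and 74.3 CPM at 30 °C and 63.4 and 71.4 at 4 °C (log2 fold change -0.17), with both tumours at 4 °C below. The ratio of Hadha counts to Hadhb counts was 2.16, 2.20 and 2.32 at 30 °C and 2.60 and 2.04 at 4 °C, so the groups overlapped (exact permutation p = 0.8). Acaa2, the thiolase, had 76.2, 50.7 and 48.0 CPM at 30 °C and 47.4 and 61.0 at 4 °C (log2 fold change -0.10). Echs1, the short-chain hydratase, had 62.0, 64.6 and 48.0 CPM at 30 °C and 44.1 and 60.3 at 4 °C (log2 fold change -0.16). Hadh, the dehydrogenase for short and medium chains, had a log2 fold change of 0.05. In Acaa2 and Echs1 the spread within each temperature was larger than the difference between the means.

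Hadha and Hadhb lie head to head on chromosome 5, Hadha on the minus strand (chr5:30118304-30155162) and Hadhb on the plus strand (chr5:30155248-30184593), with 85 bases between them in GENCODE M21. The RefSeq start of Hadha lies inside the gene as GENCODE draws it, so part of the stretch below falls within that gene. The RefSeq start regions of both genes overlap, and the part that both 300-base windows hold (RefSeq, GRCm38.p6, chr5:30155003-30155230, plus strand, 57.0% G and C) is shown for that reason, with its single GC box in capitals.
Hadha and Hadhb shared promoter: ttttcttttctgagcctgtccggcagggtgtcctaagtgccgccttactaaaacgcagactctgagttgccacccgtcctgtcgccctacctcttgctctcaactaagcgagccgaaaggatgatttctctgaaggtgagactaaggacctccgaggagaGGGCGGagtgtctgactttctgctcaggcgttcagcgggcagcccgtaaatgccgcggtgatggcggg

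Unsaturated chains need auxiliary enzymes that move or reduce their double bonds. Eci1, the mitochondrial enoyl-CoA isomerase, had 35.5, 29.1 and 28.2 CPM at 30 °C and 28.2 and 42.7 at 4 °C (log2 fold change 0.20). Decr1, the dienoyl-CoA reductase, had 29.2, 31.6 and 28.7 CPM at 30 °C and 24.7 and 33.5 at 4 °C (log2 fold change -0.03). Eci2, a second isomerase, had a log2 fold change of -0.08. In Eci1 and Decr1 the lowest or nearly the lowest and the highest level were both at 4 °C. Of the pair of isomerases, Eci1 made up 61.8% ± 1.03 of the counts per kilobase in the warm group (SD, n = 3) and 65.9% ± 2.05 in the cold group (SD, n = 2) (exact permutation p = 0.2, adjusted p = 0.418).

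Peroxisomal oxidation was read from 4 genes, 2 lower and 2 higher. Hsd17b4, the D-bifunctional enzyme, was the most abundant per kilobase and had 84.3, 64.6 and 71.2 CPM at 30 °C and 77.8 and 75.4 at 4 °C (log2 fold change 0.06). Ehhadh, the L-bifunctional enzyme and a textbook target of PPARα, had 6.92, 15.8 and 10.4 CPM at 30 °C and 9.25 and 6.95 at 4 °C (log2 fold change -0.44 ± 0.39, SE). Its highest level was in tumour 30 °C 2, and its lowest levels, nearly equal, were in 1 tumour of each group. The thiolase Acaa1a and the oxidase Acox3, which acts on branched chains, had log2 fold changes of 0.09 and -0.03.

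Electron transfer flavoprotein, built from Etfa and Etfb, takes electrons from all acyl-CoA dehydrogenases, and Etfdh passes them to ubiquinone. Etfdh had 43.3, 46.7 and 42.2 CPM at 30 °C and 33.6 and 34.3 at 4 °C. The levels within each temperature lay close together and the groups were well apart, with 44.1 ± 2.31 (SD, n = 3) against 34.0 ± 0.50 (SD, n = 2). The log2 fold change of Etfdh was -0.37 ± 0.16 (SE; edgeR adjusted p = 0.743), and DESeq2 gave an adjusted p of 0.524, with an unadjusted p under 0.05. Etfa had 99.1, 93.7 and 81.6 CPM at 30 °C and 72.1 and 78.3 at 4 °C (log2 fold change -0.28), again with both tumours at 4 °C below. Its partner Etfb had a log2 fold change of 0.09 and no order by temperature. Counts of Etfa stood to counts of Etfb at 2.59, 3.10 and 3.58 at 30 °C and at 3.03 and 1.92 at 4 °C (exact permutation p = 0.4).

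Propionyl-CoA carboxylase handles the propionyl-CoA left from odd chains, with Pcca coding for the biotin-bearing subunit and Pccb for the other. Pccb had 50.03, 66.8 and 48.6 CPM at 30 °C and 42.7 and 41.6 at 4 °C (log2 fold change -0.39 ± 0.20, SE). Pcca had 19.4, 26.0 and 19.7 CPM at 30 °C and 20.0 and 20.4 at 4 °C (log2 fold change -0.10). Both subunits were highest in tumour 30 °C 2, but only Pccb had both tumours at 4 °C below the others. The ratio of Pcca counts to Pccb counts was 0.387, 0.390 and 0.406 at 30 °C and 0.469 and 0.490 at 4 °C. The ratio thus stood apart between the groups by more than the spread in either. Its exact permutation p was 0.2, the smallest that this test can give here.

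Of the receptors that set the transcription of these genes, Ppara had 1, 5 and 4 counts at 30 °C and 4 and 0 at 4 °C, at or close to the floor of 3 counts. Ppard, the form found in most tissues, had 30.9, 24.4 and 22.5 CPM at 30 °C and 19.0 and 21.4 at 4 °C (log2 fold change -0.36), with both tumours at 4 °C below. Per kilobase Ppard made up 96.8% to 100% of the pair.

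**Figure D4:**
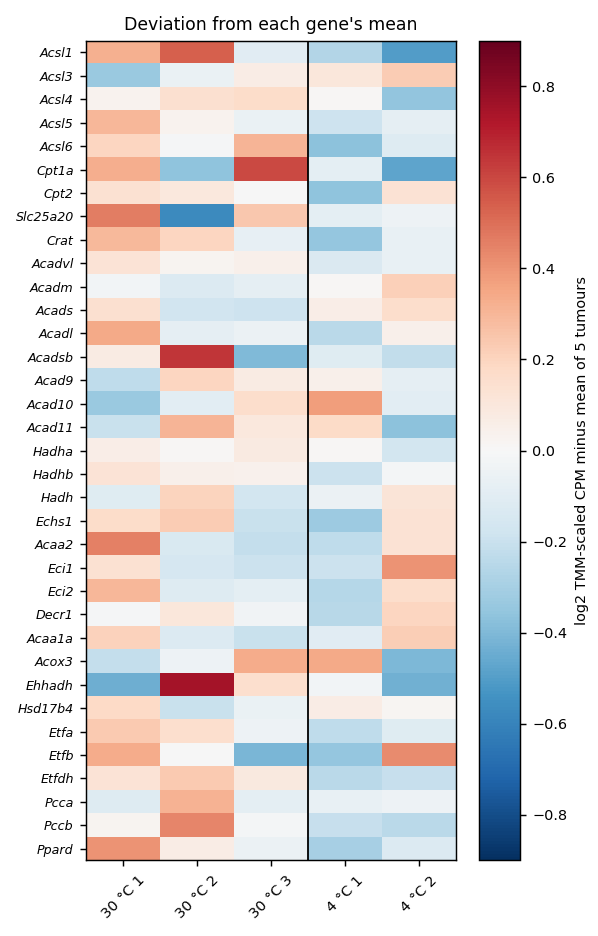
Log2 TMM-scaled CPM of each of the 35 tested genes minus its mean over the 5 tumours (colour, blue below and red above), with tumours in columns and a line between 30 °C and 4 °C. Blue prevails in the column of tumour 4 °C 1, which held the lowest level of 14 genes, and columns of 1 temperature differ among themselves as well, as for Slc25a20, Acadsb and Ehhadh at 30 °C.

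Among other genes of fat oxidation the signs were mixed. Of 41 further oxidation genes (thioesterases, peroxisomal transporters, enzymes of branched chains and others), 37 were tested, and 13 of them (35.1%) were lower and 24 higher at 4 °C, with a median log2 fold change of 0.08 and 0 called by edgeR. The cold group lay wholly below the warm one for 5 of the 37, against 11.0% of all genes, and wholly above for 2, against 12.2%. At an unadjusted p under 0.05 stood 1 of the 37, against 6.76% of all genes. It was Abcd2, a peroxisomal importer of very long chains. Abcd2 had 15.4, 19.1 and 14.9 CPM at 30 °C and 9.90 and 10.2 at 4 °C (log2 fold change -0.71 ± 0.22, SE; edgeR adjusted p = 0.692). Of 22 partners and target genes of the PPAR receptors, 16 were tested, 6 lower and 10 higher at 4 °C, with a median log2 fold change of 0.05, 0 called by edgeR and 0 at an unadjusted p under 0.05. Both tumours at 4 °C lay above all at 30 °C for 4 of these 16, against 12.2% of all genes, and below for 0, against 11.0%. The 4 were the partner receptors Rxra, Rxrb and Rxrg (log2 fold changes 0.19, 0.29 and 0.89) and the coactivator Ppargc1b (0.21). Rxrg stood at a low level, with 0.958, 0.821 and 1.57 CPM at 30 °C and 2.04 and 2.16 at 4 °C (SE of its log2 fold change 0.43).

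**Figure D5:**
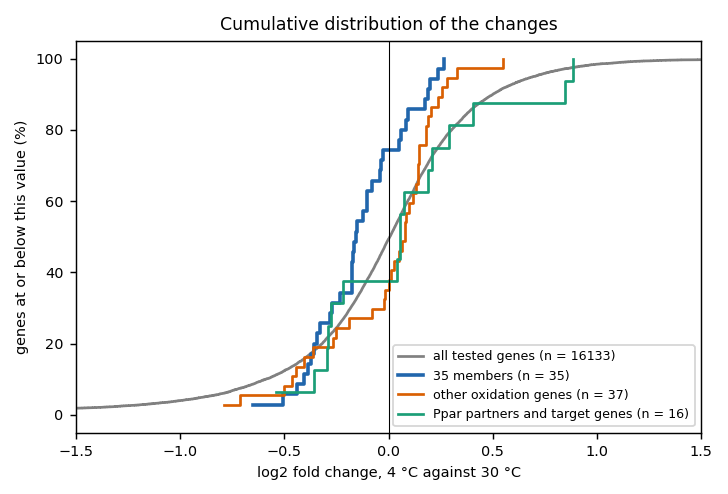
Cumulative share of genes (%) at or below each log2 fold change, 4 °C against 30 °C, for all 16133 tested genes, the 35 tested genes of the pathway, 37 other oxidation genes and 16 PPAR partners and targets. The line of the 35 genes crosses 0 at 74.3%, that of all genes at 49.3% and that of the other oxidation genes at 35.1%, and the pathway's line ends at 0.26.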

How the data were processed

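RNA of 5 CRC tumours was sequenced from TruSeq libraries, and no batch or date was given. Counts were deposited by the authors without normalization, as whole numbers, for 54446 entries. The study's methods name featureCounts 2.0.0 on Gencode vM19, and the submitters' processing notes list fastp, HISAT, RSEM and GRCm38 without roles. Strand and multimapping settings were not given in the sources used here. The 333 unnamed entries (0.0101% to 0.0170% of counts) were left out. For 97 repeated symbols the highest entry kept the symbol, and the other entries stayed among all genes under a suffix.

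In R 4.3.3, low counts were removed by filterByExpr (edgeR 4.0.16), libraries scaled by TMM, and the groups compared between 4 °C and 30 °C by the quasi-likelihood F-test with robust estimation, no covariate and Benjamini-Hochberg adjustment over all genes tested (threshold 0.05). The SE of an edgeR log2 fold change was derived as its absolute value divided by the square root of the F statistic. Log2 CPM used a prior count of 2. Shares and ratios were compared by two-sided exact permutation tests in scipy 1.17.1 (10 splits), in which the smaller one-sided p is doubled. Counts of 3 or fewer were taken as the floor (0.148 to 0.185 CPM). Coordinates and exon lengths came from GENCODE M21. Alternatives were DESeq2 1.42.0, other scalings and filters, marker levels as covariates, removal of acinar genes, a replicate block and each tumour left out. A marker level used as a covariate was the mean log2 CPM of the genes of its list. Fits were tested on simulated counts. The genes and lists were chosen with earlier results of these data known. Values per tumour are given for genes of the pathway at an unadjusted p under 0.05, with separate groups, or most or least abundant per kilobase in their role, and for genes of the 2 other lists at an unadjusted p under 0.05. Slc25a20 and Hadha were added, 4 PPAR partners named by fold change, and the levels of Rxrg given, after their values were seen.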

Additional observations from a re-analysis of the deposited data

How the results depend on the processing

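None of the 35 genes was called in any of the 15 alternative fits (smallest adjusted p = 0.317, DESeq2). Over all genes, 0 calls became 118 with DESeq2, 44 with the replicate block and 1090 at the unadjusted threshold, and stayed at 0 in the other fits. Deviations of samples with the same number correlated at r = -0.25 and 0.26, which 2 tumours at 4 °C, mirror images in their deviations, cannot settle. Both tumours numbered 2 carried acinar transcripts, and no label ties the numbers, so the block rests on number alone. The number of genes at an unadjusted p under 0.05 was 2 with DESeq2 and 0 to 1 when tumours were left out, where it was 0 without 30 °C 1, without 4 °C 1 and without 4 °C 2, and the gene was Cpt1a in place of Acsl1 without 30 °C 2. It was also Cpt1a with the erythroblast covariate and Etfb with the neutrophil covariate. Between 21 genes (neutrophil covariate) and 27 were lower at 4 °C, with 23 under upper-quartile scaling. The median log2 fold change was -0.086 with the neutrophil covariate and ran from -0.27 without 4 °C 2 to -0.11 without 4 °C 1 (over all genes 0.0049, -0.02 and -0.04). The cause of these shifts was not tested.

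Of 525 values of single genes, 35 had the other sign, in 18 genes, and 17 genes kept their sign throughout. With the neutrophil covariate the log2 fold change was 0.30 for Acaa2, -0.11 for Acad10, 0.061 for Acadl, 0.039 for Acadsb, 0.077 for Decr1, 0.16 for Echs1 and 0.17 for Eci2. With the replicate block it was 0.098 for Acox3, -0.13 for Etfb and -0.014 for Hadh, and with upper-quartile scaling 0.011 for Acad9, 0.016 for Acox3 and 0.021 for Decr1. Leaving out single tumours, the range was -0.43 to 0.039 for Slc25a20, -0.31 to 0.14 for Acaa2, -0.31 to 0.11 for Eci2, -0.15 to 0.043 for Acad9, -0.033 to 0.17 for Hsd17b4, -0.18 to 0.037 for Pcca, -0.053 to 0.16 for Hadh, -0.45 to 0.28 for Acox3, -0.37 to 0.42 for Etfb, -0.46 to 0.053 for Cpt2, -0.018 to 0.44 for Acad10, -0.42 to 0.054 for Echs1, -0.29 to 0.17 for Decr1, -0.45 to 0.074 for Acad11, -0.15 to 0.47 for Eci1 and -0.091 to 0.25 for Acaa1a. With a tumour at 4 °C left out, the lone sample was assumed to vary like those at 30 °C. Cpt1b and Ppara could not be compared at this depth.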
